A study of Mus musculus with 14 samples.

Results

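Liver sinusoidal endothelial cells (LSECs) collected 3 days after a single carbon tetrachloride (CCl4) injection were compared with LSECs collected 1 day after it, across all genes. The comparison used 6 of the 14 RNA-seq samples of the study, 2 at day 1 and 4 at day 3, taken by their sample names, and the other samples, 4 from healthy mice and 4 at day 7, served for the estimate of spread and as reference levels. All mice were male Balb/c animals, aged 10 to 12 weeks in the labels, and the injected mice received CCl4, a solvent that injures hepatocytes, at 0.5 µL per g body weight in mineral oil into the peritoneum, whereas the healthy mice received no injection. Cells were sorted straight from the perfused liver as CD32+, F4/80-, UV- and propidium iodide-negative, and CD45 was a further negative gate in the methods. No oil-injected control was part of the labelled groups, the sort keeps CD32+ cells of any zone of the sinusoid, and according to the methods some day 1 material was left out of sequencing for low RNA quality, which left 2 day 1 samples. The labels number the samples of a group without naming litters or cages, so p-values measure the spread between these samples.

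LSECs line the liver capillaries, take up waste molecules through scavenger receptors, and send growth signals to hepatocytes when liver tissue is lost. After injury, surviving endothelial cells can divide to refill the sinusoid. A dividing cell first makes the enzymes that copy DNA, under E2F transcription factors, and then the kinases, motors and kinetochore proteins that part the chromosomes, under the FOXM1 and MuvB complexes.

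The 6 libraries held 62635645 to 94626259 gene counts each, and values are CPM, counts scaled to a common TMM-normalised library size, with the mice always given in the order 1 to 2 at day 1 and 1 to 4 at day 3. Amplified libraries without molecular identifiers carry more error than counting alone. Log2 CPM correlated at 0.972 between the day 1 mice at 0.875 to 0.963 among the day 3 mice and at 0.886 to 0.937 between the days, so that some day 3 mice were less alike than mice of different days. All 13 LSEC markers were measured, and their summed level was 13252 to 16380 CPM at day 1 and 11201 to 16253 CPM at day 3. Fcgr2b, which encodes the CD32 used in the sort, lay at 1585 and 1798 CPM at day 1 and at 1580, 1392, 1780 and 1561 CPM at day 3. LSEC markers as a set were thus abundant in every sample, while Fcgr2b was selected by the sort and cannot check the label by itself. Other cells also left RNA in these samples. Hepatocyte markers summed to 33.7 to 135 CPM at day 1 and 812 to 2995 CPM at day 3, and stellate cell or fibroblast markers to 214 to 252 and 997 to 2879 CPM. Monocyte or neutrophil markers summed to 4571 to 8673 CPM at day 1 and 1395 to 13583 CPM at day 3. In day 3 mouse 1 their sum, 13583 CPM, was above that of the LSEC markers, 11201 CPM, and in each other sample compared it was below. The day 3 mice were split in the monocyte or neutrophil markers, since the mean log2 CPM of these 15 markers was 6.14 and 5.92 in mice 1 and 2 and 2.41 and 1.14 in mice 3 and 4.

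Of 26626 genes tested, 418 were higher and 258 lower at day 3 than at day 1 at an adjusted p under 0.05 (edgeR's quasi-likelihood test, Benjamini-Hochberg adjustment), which is 2.54% of the genes tested, 1.57% higher and 0.969% lower. The rises were large, with a median log2 fold change of 2.98 (2.92 with the 26 genes at 0 counts in both day 1 mice set to their lower bound) against -1.32 for the falls. Genes of the cell cycle made up 23.9% of the rises, and the falls held thrombomodulin, endothelial nitric oxide synthase, HIF-1alpha and other vessel genes at high levels. Among the 9729 genes with at least 10 CPM, 196 were higher and 231 lower. Over the whole table the median log2 fold change was 0.19, and -0.06 among those 9729 genes. In the called genes, the day 3 samples stood clear of the day 1 samples for 674 of 676, and over all genes tested 11.4% had every day 3 sample above both day 1 samples and 10.4% every one below. The design rests on 2 day 1 mice. With day 1 mouse 1 left out 49 genes were called and with day 1 mouse 2 left out 67, of which 11 and 14 were higher, while leaving out 1 day 3 mouse gave 481 to 915 called genes. For a single gene taken alone, the smallest two-sided exact permutation p for 2 against 4 mice is 0.0667.

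**Figure D1:**
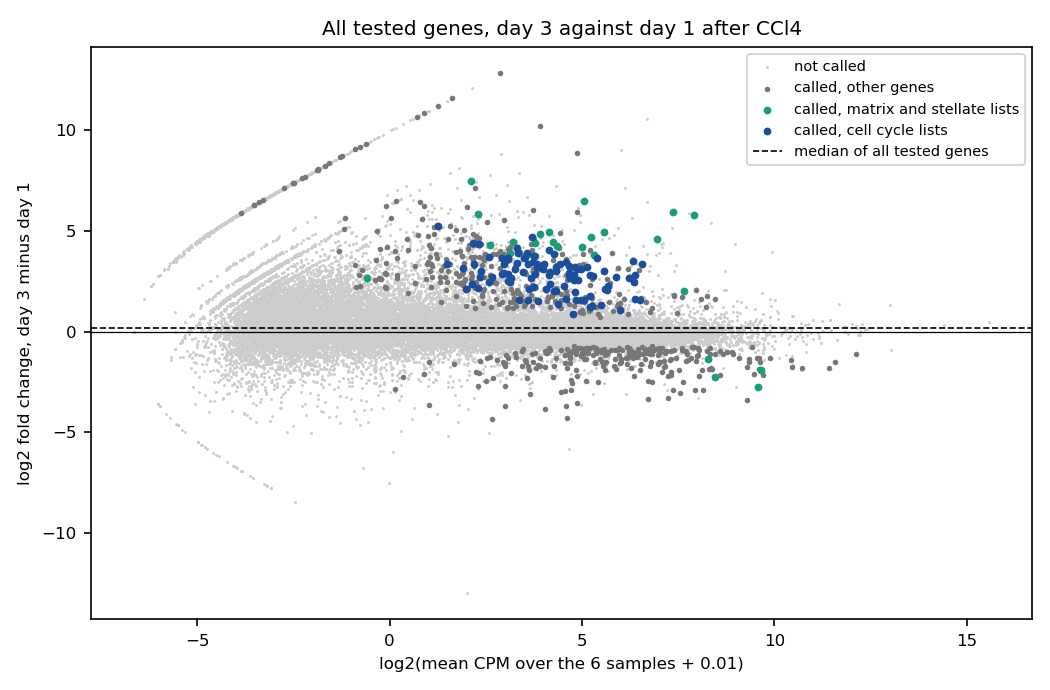
Log2 fold change of day 3 over day 1 LSECs (y axis, log2) against mean expression (x axis, log2 CPM) for the 26626 genes tested, with called genes of the cell cycle lists in blue, called genes of the matrix and stellate lists in green, other called genes in dark grey and the median of all genes, 0.19, as a dashed line. The cell cycle and matrix genes that were called lie mostly above the line, and the called falls reach further into the abundant genes. The diagonal at the upper left holds genes with 0 counts at day 1, whose fitted values depend on the prior count.

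Many genes of the cell cycle were called higher at day 3. Of 192 members of 5 lists (DNA replication, recombination and replication stress, cyclins with their kinases and E2F factors, inhibitors of these kinases, and mitosis), 100 were called higher and 0 lower, and for 149 all day 3 mice lay above both day 1 mice. At an unadjusted p under 0.05, 5 members of the 5 lists were lower by edgeR, and 3 were lower with limma-voom and 0 with DESeq2. The count depends on the samples in the fit, since 4 of the 192 were called higher without day 1 mouse 1, 1 without day 1 mouse 2, 55 without day 3 mouse 3 and 7 with a model of the 6 samples alone.

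Among the proteins that drive the cycle, Cdk1, the kinase that starts mitosis (chr10:69335146-69352938), lay at 20.3 and 12.9 CPM at day 1 and at 132, 97.5, 137 and 102 CPM at day 3. Every day 3 mouse was above both day 1 mice, and the log2 fold change was 2.82 with a standard error of 0.38 (adjusted p = 0.00294). Ccne1, the cyclin of the entry into S phase, lay at 2.42 and 1.94 CPM at day 1 and at 9.69, 5.92, 19.3 and 13.0 CPM at day 3 (log2 fold change 2.46, adjusted p = 0.0133). Cdk6, a kinase of the first gap phase, was even between mice, at 19.6 and 19.5 CPM at day 1 and at 45.1, 48.3, 46.7 and 48.7 CPM at day 3 (log2 fold change 1.27, adjusted p = 0.0169). Of the transcription factors, E2f8, a late repressor among E2F factors, was 0.502 and 0.209 CPM at day 1 and 4.05, 1.97, 7.93 and 15.2 CPM at day 3 (log2 fold change 4.35, adjusted p = 0.0139). E2f1 and Foxm1 were singled out after their values were seen. E2f1, an activator of S phase genes, lay at 4.32 and 3.19 CPM at day 1 and at 17.1, 8.45, 52.2 and 65.4 CPM at day 3 (log2 fold change 3.25, adjusted p = 0.0243). Foxm1, an activator of mitotic genes, lay at 1.02 and 0.429 CPM at day 1 and at 8.96, 6.53, 8.69 and 51.6 CPM at day 3, so that mouse 4 stood far above the other 3 (log2 fold change 4.71, adjusted p = 0.0239). In all, 11 of 29 cyclins, kinases and factors of this list were called higher and 0 lower, 17 had all day 3 mice above both day 1 mice, and the list's median log2 fold change was 1.52 beside 0.19 for all genes.

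Several members of that list did not pass the test. Ccnd1, cyclin D1 of the first gap phase, lay at 70.0 and 80.3 CPM at day 1 and at 166, 105, 323 and 265 CPM at day 3, with no overlap (log2 fold change 1.52, adjusted p = 0.0862). Ccnb1, cyclin B1, the partner of Cdk1, lay at 4.92 and 1.86 CPM at day 1 and at 15.3, 9.15, 17.5 and 30.8 CPM at day 3 (log2 fold change 2.42, adjusted p = 0.0609). Cdk4, another kinase of the first gap phase, was chosen after its values were seen and ranged over 266 to 301 CPM at day 1 and 221 to 329 CPM at day 3 (log2 fold change -0.11, adjusted p = 0.877). Every call named for this list was lost when day 1 mouse 2 was left out, and all but that of Cdk1 also without day 1 mouse 1. Without day 1 mouse 1, 1 member of the list was called higher, without day 1 mouse 2 it was 0, and without day 3 mouse 3, when E2f1 also lost its call, it was 7.

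Enzymes that copy DNA were among the rises. Of 51 DNA replication genes, 23 were called higher and 0 lower (1 was lower at an unadjusted p under 0.05, and 0 with DESeq2 or limma-voom), 40 had all day 3 mice above both day 1 mice, and the median log2 fold change was 1.49. Tk1, thymidine kinase, which salvages a building block of DNA, was 9.04 and 5.72 CPM at day 1 and 55.2, 29.9, 64.2 and 57.0 CPM at day 3 (log2 fold change 2.80, adjusted p = 0.00274). Tyms, thymidylate synthase, which makes the same building block afresh, was 8.92 and 10.2 CPM at day 1 and 47.4, 23.7, 39.1 and 38.9 CPM at day 3 (log2 fold change 1.97, adjusted p = 0.00522). In both genes the lowest day 3 value came from mouse 2 and was still more than 2 times the higher day 1 value. Pola1, the polymerase subunit that starts new strands, was 12.7 and 16.2 CPM at day 1 and 38.2, 29.1, 57.4 and 46.3 CPM at day 3 (log2 fold change 1.57, adjusted p = 0.00907). Pole, the polymerase of the leading strand, was 2.27 and 1.71 CPM at day 1 and 11.1, 8.98, 20.9 and 40.3 CPM at day 3 (log2 fold change 3.35, adjusted p = 0.0112). Pole spread more between the day 3 mice than Pola1 did, with mouse 4 highest.

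The MCM2 to MCM7 helicase, which opens the double helix, was measured as 6 genes, of which Mcm5, Mcm6 and Mcm7 were called higher. Mcm5 (chr8:75109569-75128439) was 17.1 and 15.8 CPM at day 1 and 60.1, 34.8, 142 and 178 CPM at day 3, so that mice 3 and 4 were above mice 1 and 2 (log2 fold change 2.66, SE 0.54, adjusted p = 0.0210). In the other 5 genes of the ring mice 3 and 4 also lay above mice 1 and 2, and Mcm2, chosen after its values were seen, lay at 20.8 and 26.6 CPM at day 1 and at 53.4, 30.6, 131 and 180 CPM at day 3 without passing the test (log2 fold change 2.06, adjusted p = 0.0774). Mcm3 gave a log2 fold change of 0.96 and Mcm4 of 1.49, and neither passed. Pcna, the clamp that holds the polymerases on DNA, was already high at day 1, at 249 and 237 CPM, and lay at 388, 304, 331 and 191 CPM at day 3, which overlapped (log2 fold change 0.32, adjusted p = 0.662). Pclaf, a small protein that binds this clamp and was chosen after its values were seen, lay at 4.68 and 1.85 CPM at day 1 and at 70.4, 34.5, 64.4 and 46.4 CPM at day 3 (log2 fold change 4.05, adjusted p = 0.00373). Replication-dependent histone genes, by the symbols starting with Hist, had 13 of 66 called higher, 0 lower, 34 above without overlap and a median log2 fold change of 1.39, but these genes are near-identical copies and their single values are uncertain. In place of 23, 1 gene of the DNA replication list was called higher without day 1 mouse 1, 0 without day 1 mouse 2 and 9 without day 3 mouse 3.

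Of 26 genes that repair broken or stalled replication forks, 14 were called higher and 12 were not called, with 0 lower by edgeR at either threshold and 0 by DESeq2 or limma-voom, 18 above without overlap and a median log2 fold change of 1.80. Brca1, which takes part in the repair of broken DNA, was 1.23 and 0.671 CPM at day 1 and 10.0, 5.10, 20.1 and 13.7 CPM at day 3 (log2 fold change 3.68, adjusted p = 0.00820). All day 3 values of Brca1 were above both day 1 values. Chek1, the checkpoint kinase of stalled forks, was 0.909 and 0.792 CPM at day 1 and 7.39, 5.07, 17.9 and 13.2 CPM at day 3 (log2 fold change 3.68, adjusted p = 0.00390). Fancd2, of the crosslink repair pathway, was 0.335 and 0.286 CPM at day 1 and 4.12, 3.74, 8.04 and 10.6 CPM at day 3 (log2 fold change 4.41, adjusted p = 0.00361). None of the 14 calls was kept when either day 1 mouse was left out.

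Mitotic genes gave the highest share of calls. Of 70 members, 50 were called higher and 0 lower (0 lower at an unadjusted p under 0.05 and 0 with DESeq2 or limma-voom), 67 had all day 3 mice above both day 1 mice, and the median log2 fold change was 2.82. Spc24, a subunit of the outer kinetochore (chr9:21755442-21760303), was 1.75 and 1.08 CPM at day 1 and 20.5, 17.5, 23.5 and 16.4 CPM at day 3. The day 3 mice were close together, and the log2 fold change was 3.79 with a standard error of 0.44 (adjusted p = 0.00195). Spc24 was the single rise of the 418 that was called in all 17 alternative settings, those without a day 1 mouse included. Cenpi, of the inner kinetochore, was 2.00 and 1.12 CPM at day 1 and 11.5, 9.73, 15.9 and 16.6 CPM at day 3 (log2 fold change 3.11, adjusted p = 0.00274). Cenpm, also of the inner kinetochore, was 0.993 and 0.605 CPM at day 1 and 15.1, 8.88, 21.7 and 12.2 CPM at day 3 (log2 fold change 4.18, adjusted p = 0.00361). Birc5, survivin of the chromosomal passenger complex, was 6.36 and 3.14 CPM at day 1 and 72.7, 37.8, 81.5 and 50.0 CPM at day 3 (log2 fold change 3.67, adjusted p = 0.00767). Mouse 3 or mouse 4 was highest in each of these 4 genes, and the groups did not overlap in any of them.

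Top2a, which untangles chromosomes, was 12.4 and 7.47 CPM at day 1 and 92.2, 40.0, 154 and 171 CPM at day 3 (log2 fold change 3.52, adjusted p = 0.0109). Mki67, the coat of mitotic chromosomes used as the Ki67 mark of cycling cells (chr7:135689784-135716361), was 17.7 and 8.67 CPM at day 1 and 90.0, 51.8, 186 and 209 CPM at day 3 (log2 fold change 3.35, SE 0.67, adjusted p = 0.0196). Both genes had no overlap between the days, and in both mice 3 and 4 lay above mice 1 and 2. Healthy LSECs averaged 28.7 CPM of Mki67 and 26.8 CPM of Top2a, above both day 1 mice, and day 7 LSECs averaged 81.8 and 63.7 CPM. Over the mitosis list, the median of the day 1 means lay 1.01 below healthy on the log2 scale and that of the day 3 means 1.72 above it. Plk1, a mitotic kinase chosen after its values were seen, lay at 3.29 and 1.74 CPM at day 1 and at 13.3, 5.60, 30.2 and 44.7 CPM at day 3 and did not pass (log2 fold change 3.22, adjusted p = 0.0568). In place of 50, 2 members of the list were called higher without day 1 mouse 1, 1 without day 1 mouse 2 and 27 without day 3 mouse 3. In a bulk sample, fewer cells of a type and less RNA per cell cannot be told apart, so these values do not say how many LSECs were in the cycle. Summed hepatocyte and stellate or fibroblast markers were also higher at day 3. The part of cells other than LSECs in the rises of cell cycle genes was not tested.

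**Figure D2:**
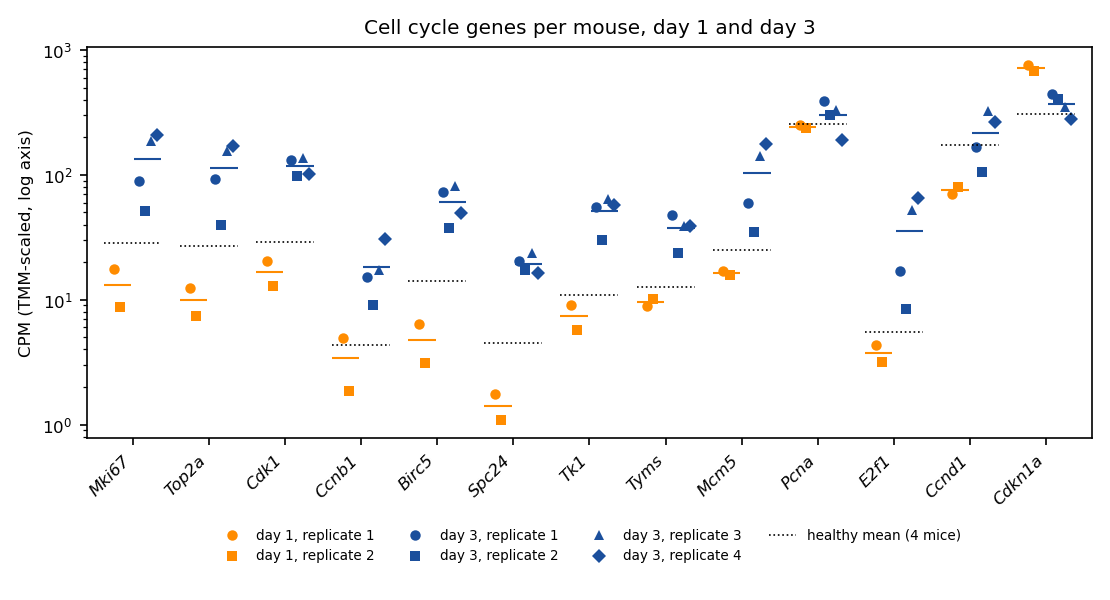
Expression (CPM, log axis) of 13 cell cycle genes in each day 1 mouse (orange) and each day 3 mouse (blue), with a line at each group mean and a dotted line at the healthy mean. Day 3 points lie above the day 1 points for 11 of the genes, Pcna overlaps and Cdkn1a lies lower at day 3.

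The brakes of the cycle did not move as a group. Of 16 CDK inhibitors and pocket proteins, 2 were called higher and 0 lower by edgeR, with a median log2 fold change of 0.21, 3 lower at an unadjusted p under 0.05, and 0 lower with DESeq2 and 2 with limma-voom. Cdkn1a, p21, was 763 and 683 CPM at day 1 and 447, 409, 353 and 282 CPM at day 3, which were all below both day 1 mice without passing the test (log2 fold change -0.96, adjusted p = 0.208). Healthy LSECs averaged 309 CPM of it. Rbl1, the pocket protein p107, was 8.95 and 10.8 CPM at day 1 and 26.9, 32.5, 29.6 and 34.9 CPM at day 3 (log2 fold change 1.65, adjusted p = 0.00274). Cdkn3, a phosphatase that acts on cyclin-dependent kinases, was 1.64 and 1.29 CPM at day 1 and 17.0, 10.6, 12.2 and 2.92 CPM at day 3, with mouse 4 far lower than the others (log2 fold change 2.87, adjusted p = 0.0488). Among 25 targets of p53, 0 were called higher (2 at an unadjusted p under 0.05, 1 with DESeq2 and 1 with limma-voom) and Trp53inp1 was called lower, at 35.0 and 28.2 CPM at day 1 and 14.2, 15.5, 17.4 and 20.6 CPM at day 3 (log2 fold change -0.90, adjusted p = 0.0416). The Trp53inp1 call was lost with RLE or library-size scaling, and those of Rbl1, Cdkn3 and Trp53inp1 were lost without either day 1 mouse. Cdkn3 and Trp53inp1 also lost theirs without day 3 mouse 1, 2 or 3.

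The promoters of these genes were read from RefSeq (GRCm38.p6), 300 bases from 250 before to 50 after each start, 32851 promoters of 27025 genes. They are shown because the called rises come from both arms of the cycle, whose promoters are known for different short motifs. The first set, shown for mitosis, has in capitals the cell cycle homology region (CHR, TTTGAA) and the CCAAT box (CCAAT), on either strand, 5 matches in each promoter and 0 of them overlapping. Cdk1 lies at chr10:69352863-69353162, Ccnb2 (cyclin B2, chosen after its values were seen) at chr9:70421505-70421804 and Mki67 at chr7:135716330-135716629, all on the minus strand.
Cdk1 promoter: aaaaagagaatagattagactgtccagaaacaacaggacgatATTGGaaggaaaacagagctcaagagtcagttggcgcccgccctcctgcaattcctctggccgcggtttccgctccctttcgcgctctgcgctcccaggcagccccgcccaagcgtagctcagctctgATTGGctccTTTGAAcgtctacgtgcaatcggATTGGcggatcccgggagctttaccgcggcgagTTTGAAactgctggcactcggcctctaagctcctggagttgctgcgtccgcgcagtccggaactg
Ccnb2 promoter: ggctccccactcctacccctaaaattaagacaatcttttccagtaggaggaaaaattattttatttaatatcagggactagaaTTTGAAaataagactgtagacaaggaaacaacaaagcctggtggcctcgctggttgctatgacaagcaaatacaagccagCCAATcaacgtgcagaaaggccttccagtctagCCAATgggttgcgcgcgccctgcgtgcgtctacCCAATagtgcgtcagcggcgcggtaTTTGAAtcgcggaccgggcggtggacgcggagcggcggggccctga
Mki67 promoter: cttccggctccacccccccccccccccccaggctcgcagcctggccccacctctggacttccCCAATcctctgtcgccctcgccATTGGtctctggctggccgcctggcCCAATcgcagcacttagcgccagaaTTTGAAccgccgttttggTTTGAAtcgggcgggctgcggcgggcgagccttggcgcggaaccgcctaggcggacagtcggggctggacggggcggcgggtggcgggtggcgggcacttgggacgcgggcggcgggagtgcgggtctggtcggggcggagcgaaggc
The second set, shown for DNA replication, has in capitals 2 forms of the E2F core (TTCCCGC and TTGGCGC), on either strand, 2 matches in each. Both matches are TTGGCGC in Mcm5 and TTCCCGC in Pclaf. Capitals mark only the motifs of a promoter's own set. In lower case, the Cdk1 and Mki67 promoters also hold TTGGCGC, and those of Mcm5 and Pclaf also hold CCAAT. Mcm5 lies at chr8:75109259-75109558 and Pclaf at chr9:65890073-65890372, on the plus strand.
Mcm5 promoter: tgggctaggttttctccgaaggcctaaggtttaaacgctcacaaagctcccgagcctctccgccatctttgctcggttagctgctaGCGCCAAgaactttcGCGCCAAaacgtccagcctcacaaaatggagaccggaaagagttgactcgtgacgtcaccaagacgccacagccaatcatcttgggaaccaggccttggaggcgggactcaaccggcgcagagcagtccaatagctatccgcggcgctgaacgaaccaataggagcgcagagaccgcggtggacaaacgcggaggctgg
Pclaf promoter: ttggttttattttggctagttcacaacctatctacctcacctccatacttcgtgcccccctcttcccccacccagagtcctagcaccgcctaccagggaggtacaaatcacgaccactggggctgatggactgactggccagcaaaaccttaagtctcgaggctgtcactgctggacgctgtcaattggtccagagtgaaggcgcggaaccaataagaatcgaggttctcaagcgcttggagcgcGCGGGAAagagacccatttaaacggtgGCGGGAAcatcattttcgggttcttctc
The CHR letters stood in 70.6% of 68 promoters of the mitosis genes (61 of 70 genes matched) and in 17.9% of all promoters, and for DNA replication the share was 17.6% of 51 promoters (42 of 51 genes matched). The letters TTCCCGC stood in 39.2% of the DNA replication promoters, in 11.8% of the mitosis promoters and in 4.6% of all. For TTGGCGC the shares were 21.6%, 11.8% and 2.45%, in the same order. The CCAAT box stood in 73.5% of the mitosis promoters, 54.9% of the DNA replication promoters and 37.4% of all. Over the called rises as a whole (302 of 418 genes matched, 361 promoters) the CHR letters stood in 23% and TTCCCGC in 15%, against 10.9% and 6.48% of 247 promoters of the called falls (187 of 258 genes matched). The AP-1 letters TGAGTCA stood in 3.6% of the promoters of rises, 7.29% of those of falls and 5.2% of all. A match is a string of letters in this window and no measurement of binding.

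Ccnb2, whose promoter is shown above, lay at 5.69 and 3.57 CPM at day 1 and at 41.4, 21.5, 46.7 and 32.3 CPM at day 3 (log2 fold change 2.94, adjusted p = 0.0196). All day 3 mice lay above both day 1 mice. The call was lost when either day 1 mouse was left out, and the same held for Mcm5, Mki67 and Top2a, whereas Pclaf lost its call without day 1 mouse 2 alone. Mcm5 also lost its call without day 3 mouse 3.

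Matrix genes and genes of stellate cells or fibroblasts made up the next group of rises. Over the lists of collagens, basement membrane and matricellular proteins, matrix proteases and stellate or fibroblast markers, 22 of 95 genes were called higher and 4 lower. Of 24 collagens 9 were called higher and 1 lower, with a median log2 fold change of 4.57, and of 15 stellate or fibroblast markers 7 were higher and 0 lower (0 lower at an unadjusted p under 0.05 and with DESeq2 or limma-voom), with a median of 4.08. Col1a2, a chain of the fibrillar collagen I (chr6:4504814-4541544), was 5.53 and 2.56 CPM at day 1 and 136, 86.9, 157 and 607 CPM at day 3 (log2 fold change 5.93, SE 1.32, adjusted p = 0.0310). Col6a3, a chain of the microfibrillar collagen VI, was 0.694 and 0.407 CPM at day 1 and 41.0, 32.8, 32.9 and 91.9 CPM at day 3 (log2 fold change 6.49, adjusted p = 0.0124). Col5a1, which starts the assembly of collagen fibrils, was 2.08 and 2.41 CPM at day 1 and 55.0, 73.2, 38.6 and 112 CPM at day 3 (log2 fold change 4.96, adjusted p = 0.0179). Mouse 4 was the highest day 3 mouse for all of these. Lum, lumican of the collagen matrix, was 9.05 and 5.95 CPM at day 1 and 282, 204, 78.1 and 161 CPM at day 3, with mouse 1 highest (log2 fold change 4.59, adjusted p = 0.0156). Reln, reelin, which stellate cells secrete, was 3.37 and 1.70 CPM at day 1 and 50.7, 48.2, 24.0 and 63.9 CPM at day 3 (log2 fold change 4.20, adjusted p = 0.0223). Tcf21, a transcription factor of stellate cells, was 0.981 and 0.936 CPM at day 1 and 21.8, 10.6, 18.5 and 29.8 CPM at day 3 (log2 fold change 4.40, adjusted p = 0.0282).

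The summed level of the 15 stellate or fibroblast markers was 214 to 252 CPM at day 1 and 997 to 2879 CPM at day 3, 14 of the 15 lay above without overlap, and no defining marker was under the floor of 3 counts in all 6 samples. Collagen lists and stellate markers share genes, and the part of stellate cells in the sort in these rises was not tested. At day 7 Col1a2 lay at 75.5, 1691, 241 and 358 CPM, highest in mouse 2, beside a healthy mean of 8.37 CPM. The collagens of the endothelial basement membrane went otherwise. Col4a1 was 1284 and 1254 CPM at day 1 and 631, 666, 794 and 1587 CPM at day 3 and did not pass (log2 fold change -0.46, adjusted p = 0.616). Col4a2, which overlaps Col4a1 in the annotation, gave a log2 fold change of -0.32 (adjusted p = 0.722). In both genes the first 3 day 3 mice lay below both day 1 mice, and mouse 4 lay above them. Col13a1, a transmembrane collagen, fell, from 710 and 776 CPM at day 1 to 118, 127, 153 and 237 CPM at day 3 (log2 fold change -2.23, adjusted p = 0.00274). With either day 1 mouse left out, 0 collagens and 0 stellate markers were called higher by edgeR, and Col13a1 was still called lower. Tcf21 also lost its call without day 3 mouse 3.

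The 10 largest rises among protein-coding genes with at least 5 CPM were mostly of these kinds and of hepatocytes. Ccdc3, a secreted protein (chr2:5137776-5230878), had 0 counts in both day 1 mice and 9.25, 6.69, 9.29 and 18.7 CPM at day 3 (adjusted p = 0.00274). Its day 3 mean was at least 319-fold higher against a floor of 3 counts in each day 1 sample. Rgn, regucalcin of hepatocytes, had 3 counts in all at day 1 and 18.7, 35.6, 22.6 and 12.2 CPM at day 3, a ratio of 1220 with a 95% counting interval of 417 to 5917 (adjusted p = 0.0302). That interval leaves out the spread between mice, and the fitted log2 fold change of Rgn was 10.2 with a standard error of 2.25. Akr1c6 and Hamp, both made by hepatocytes, gave log2 fold changes of 8.87 (adjusted p = 0.0346) and 5.94 (adjusted p = 0.0445). Lama1, Ltbp2, Islr and Capn6 completed the 10 with Col6a3 and Col1a2, at log2 fold changes of 7.50, 7.16, 6.19 and 6.06. Every hepatocyte marker of 12 lay above without overlap at day 3, 0 were called by edgeR, 7 were higher at an unadjusted p under 0.05, and 7 were called higher with DESeq2 and 3 with limma-voom. Alb, albumin, chosen after its values were seen, lay at 12.3 and 59.8 CPM at day 1 and at 247, 577, 1206 and 939 CPM at day 3 (log2 fold change 4.36, adjusted p = 0.211). In healthy LSECs Alb was 95.6, 68.8, 124 and 2611 CPM, and healthy mouse 4 alone held 8376 CPM of summed hepatocyte markers against 204 to 379 CPM in the other healthy mice. The part of hepatocyte RNA in the rises of Rgn, Akr1c6 and Hamp was not tested. Of the 10 rises, 9 lost their call without day 1 mouse 1 and without day 1 mouse 2, and Ccdc3 lost it without day 1 mouse 1 alone. Without day 3 mouse 3, Rgn, Akr1c6 and Hamp lost theirs, as did Akr1c6 without mouse 1 or 2 and Hamp without mouse 2.

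**Figure D3:**
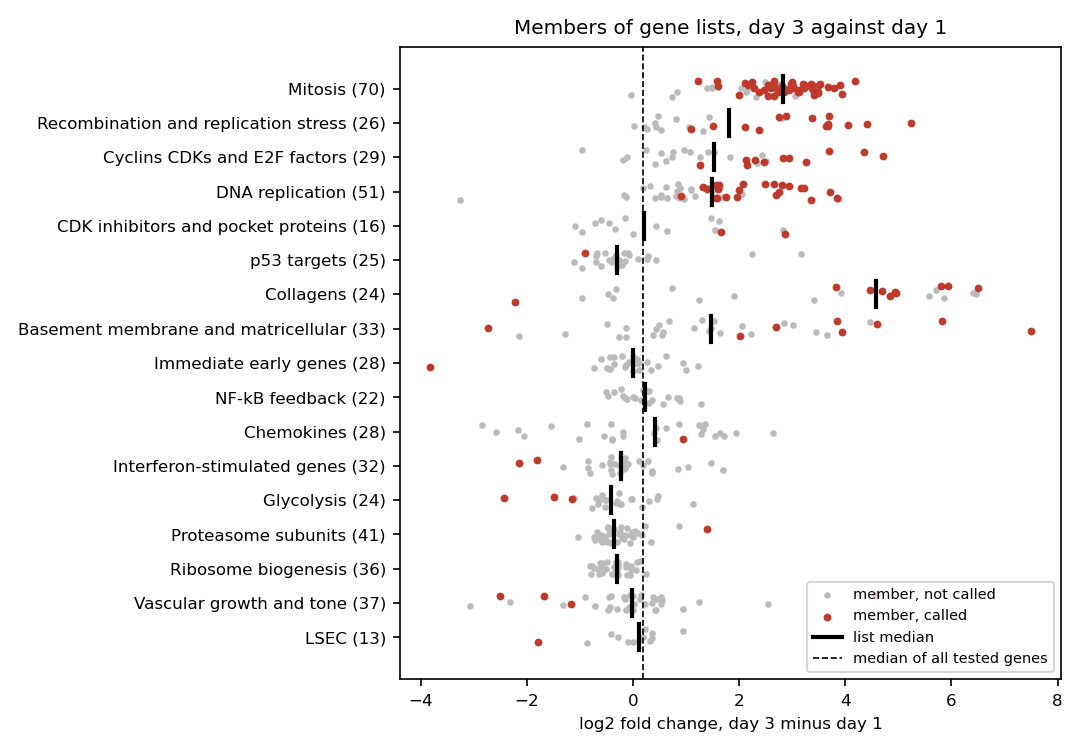
Log2 fold change of day 3 over day 1 for each member of 17 gene lists (points, called genes in red) with each list's median as a black bar. The medians of mitosis, recombination, cyclins, DNA replication, collagens and basement membrane genes lie between 1.46 and 4.57, whereas the inflammatory, proteasome and endothelial lists have medians between -0.42 and 0.42.

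Several of the falls lay in genes of the vessel wall that were abundant at day 1. Thbd, thrombomodulin, the endothelial receptor that turns thrombin towards anticoagulation (chr2:148404466-148408188), was 1488 and 1637 CPM at day 1 and 162, 264, 79.2 and 101 CPM at day 3. All 4 day 3 mice were far below both day 1 mice, a 10.3-fold fall (log2 fold change -3.36, SE 0.40, adjusted p = 0.00195), and the healthy mean was 136 CPM. Nos3, endothelial nitric oxide synthase (chr5:24364810-24384474), was 421 and 455 CPM at day 1 and 57.2, 98.9, 55.9 and 96.0 CPM at day 3 (log2 fold change -2.51, adjusted p = 0.00195), beside 102 CPM in healthy LSECs. Nos3 overlaps Atg9b and Gm15587 in the annotation, and its count is uncertain to that extent. Cd93 and S1pr1 were chosen after their values were seen. Cd93, a surface receptor of sprouting endothelium (chr2:148436640-148443563), was 1820 and 1597 CPM at day 1 and 382, 413, 402 and 345 CPM at day 3 (log2 fold change -2.15, SE 0.21, adjusted p = 0.000724). S1pr1, the receptor that keeps endothelial junctions closed, was 608 and 599 CPM at day 1 and 123, 173, 191 and 191 CPM at day 3 (log2 fold change -1.83, adjusted p = 0.00125). All 4 were among the 25 falls that were called in all 17 alternative settings, and 30 falls against 2 rises were called in both fits without a day 1 mouse.

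Genes of cell contact and matrix were among the falls too. Esam, an adhesion molecule of endothelial junctions, was 1457 and 1666 CPM at day 1 and 526, 595, 659 and 741 CPM at day 3 (log2 fold change -1.31, adjusted p = 0.0109). Itgb3, the beta chain of the vitronectin receptor and chosen after its values were seen, was 339 and 445 CPM at day 1 and 43.5, 71.8, 45.4 and 48.5 CPM at day 3 (log2 fold change -2.91, adjusted p = 0.00195), with a healthy mean of 9.25 CPM. Ccn2, connective tissue growth factor, was 2276 and 1260 CPM at day 1 and 146, 239, 322 and 356 CPM at day 3 (log2 fold change -2.73, adjusted p = 0.00782). All 4 day 3 mice lay above the healthy mean for Itgb3 and for Ccn2, which was 54.2 CPM for Ccn2. Timp3, an inhibitor of matrix proteases, was 1582 and 1542 CPM at day 1 and 325, 358, 495 and 528 CPM at day 3 (log2 fold change -1.87, adjusted p = 0.00213). Plaur, the urokinase receptor, was 562 and 489 CPM at day 1 and 254, 238, 172 and 147 CPM at day 3 (log2 fold change -1.37, adjusted p = 0.0249). Of the angiocrine factors, secreted by endothelium towards its neighbours, 1 of 28 was called higher and 1 lower. Inhbb, a chain of activin B, was 559 and 535 CPM at day 1 and 108, 198, 87.4 and 90.2 CPM at day 3 (log2 fold change -2.18, adjusted p = 0.0114). Fstl1, a secreted binder of activins and BMPs, was 3.19 and 3.32 CPM at day 1 and 46.4, 33.2, 38.8 and 69.7 CPM at day 3 (log2 fold change 3.85, adjusted p = 0.0175). Which cells in the sort held the Fstl1 RNA, endothelial or stellate cells among them, was not tested. Wnt2, the hepatocyte mitogen of LSECs, was 90.4 and 120 CPM at day 1 and 215, 259, 64.4 and 37.1 CPM at day 3, with mice 1 and 2 above and mice 3 and 4 below both day 1 mice (log2 fold change 0.45, adjusted p = 0.784). The calls of Esam, Plaur, Inhbb and Fstl1 were lost when either day 1 mouse was left out and that of Ccn2 without day 1 mouse 1, whereas those of Itgb3 and Timp3 were kept.

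Hif1a and 3 genes of glucose use were called lower at day 3. Hif1a, the oxygen-sensitive transcription factor (chr12:73901375-73947530), was chosen after its values were seen and lay at 398 and 315 CPM at day 1 and at 89.4, 85.6, 104 and 104 CPM at day 3. The day 3 mice were close together and near the healthy mean of 90.0 CPM (log2 fold change -1.90, SE 0.17, adjusted p = 0.000300). Of 24 glycolysis genes, 3 were called lower and 0 higher by edgeR (1 higher at an unadjusted p under 0.05, 1 with DESeq2 and 0 with limma-voom), with a median log2 fold change of -0.42. Slc2a1, the glucose importer, was 101 and 41.0 CPM at day 1 and 24.1, 24.4, 23.1 and 29.2 CPM at day 3 (log2 fold change -1.50, adjusted p = 0.0239). Slc16a3, the lactate exporter, was 113 and 37.9 CPM at day 1 and 19.2, 17.6, 6.31 and 13.1 CPM at day 3 (log2 fold change -2.43, adjusted p = 0.0310). Both were much higher in day 1 mouse 1 than in mouse 2 and neither was called without mouse 1. Slc16a3 was also not called without day 3 mouse 2. Pdk1, a brake on the entry of pyruvate into mitochondria, gave a log2 fold change of -1.15 (adjusted p = 0.0334), a call that was lost without either day 1 mouse, without day 3 mouse 1 or 2, and with library-size scaling. Ldha, lactate dehydrogenase, chosen after its values were seen, showed a log2 fold change of -0.03 (adjusted p = 0.970).

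Among the 10 largest falls of protein-coding genes with at least 5 CPM were several that healthy LSECs hardly express. Fosl1, a subunit of the AP-1 factor, was 41.6 and 44.9 CPM at day 1 and 2.43, 6.23, 2.33 and 1.32 CPM at day 3 (log2 fold change -3.82, adjusted p = 0.00274), beside 0.762 CPM in healthy LSECs. Tnfrsf9, the costimulatory receptor 4-1BB, was 84.1 and 47.8 CPM at day 1 and 3.77, 5.70, 2.56 and 1.74 CPM at day 3 (log2 fold change -4.26, adjusted p = 0.00274). Crispld2, a secreted protein, was 21.6 and 12.9 CPM at day 1 and 0.460, 1.24, 0.491 and 1.24 CPM at day 3 (log2 fold change -4.33, adjusted p = 0.00205). The day 3 mice lay far below both day 1 mice in each, and for Tnfrsf9 they stayed above the healthy mean of 0.591 CPM. Ch25h, which makes 25-hydroxycholesterol, was 310 and 214 CPM at day 1 and 23.0, 49.5, 20.1 and 9.71 CPM at day 3 (log2 fold change -3.36, adjusted p = 0.00361). Npy, the precursor of neuropeptide Y, was 354 and 400 CPM at day 1 and 33.7, 67.5, 32.5 and 18.7 CPM at day 3 (log2 fold change -3.31, adjusted p = 0.00361). Qsox1, which forms disulfide bonds in secreted proteins, was 486 and 415 CPM at day 1 and 44.0, 61.6, 48.4 and 61.5 CPM at day 3 (log2 fold change -3.06, adjusted p = 0.000300), beside 45.6 CPM in healthy LSECs. Slc10a6, Map3k6 and Gprc5b completed the 10 with Thbd, at log2 fold changes of -3.53, -3.68 and -3.70. Map3k6 lost its call without day 1 mouse 1, and Gprc5b lost its call without either day 1 mouse and without day 3 mouse 1, 2 or 3, while the other 8 were called in all 17 settings.

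**Figure D4:**
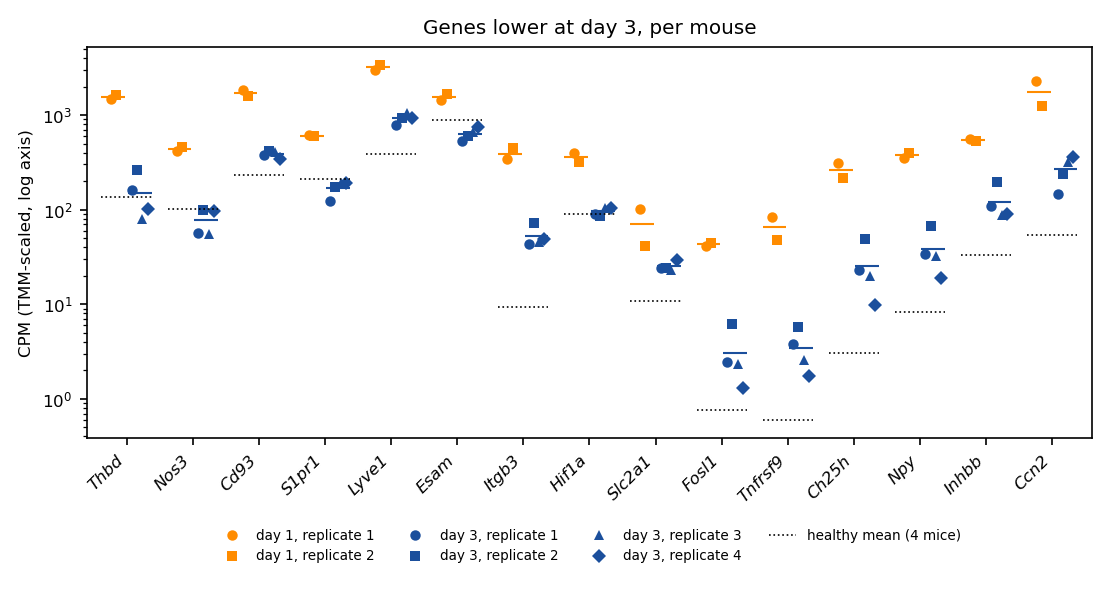
Expression (CPM, log axis) of 15 genes called lower at day 3 in each day 1 mouse (orange) and each day 3 mouse (blue), with a line at each group mean and a dotted line at the healthy mean. The groups do not overlap for any of the 15, and the day 3 mice lie near the healthy mean for Thbd, Nos3 and Hif1a and above it for Itgb3, Ch25h, Npy, Inhbb and Ccn2.

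Most of the immediate early and inflammatory genes were not separated by the days. Of 28 immediate early genes Fosl1 alone was called lower and 0 higher by edgeR, with 1 in each direction at an unadjusted p under 0.05, 1 in each with DESeq2, and 1 higher and 5 lower with limma-voom, and the list's median log2 fold change was 0.00. Fos, another subunit of AP-1, chosen after its values were seen, was 4674 and 5488 CPM at day 1 and 4478, 3755, 5099 and 5080 CPM at day 3 (log2 fold change -0.14, adjusted p = 0.841). Among 22 genes of NF-kB feedback 0 were called (5 at an unadjusted p under 0.05, 3 with DESeq2 and 5 with limma-voom). Among 28 chemokines Cxcl16, a membrane-bound chemokine, was called higher, at 89.1 and 129 CPM at day 1 and 219, 236, 194 and 189 CPM at day 3 (log2 fold change 0.94, adjusted p = 0.0366), beside 323 CPM in healthy LSECs. At an unadjusted p under 0.05, 8 chemokines were higher and 2 lower, with DESeq2 4 and 1, and with limma-voom 6 and 1. Il4ra, the receptor chain of interleukin 4, was the sole call by edgeR of 28 cytokines and receptors (2 higher and 3 lower with DESeq2, 4 higher and 3 lower with limma-voom) and fell from 325 and 212 CPM at day 1 to 80.1, 95.0, 74.7 and 153 CPM at day 3 (log2 fold change -1.42, adjusted p = 0.0159). Ccl2, a chemokine for monocytes chosen after its values were seen, lay at 882 and 1388 CPM in day 3 mice 1 and 2 and at 224 and 163 CPM in mice 3 and 4, around day 1 values of 256 and 202 CPM (log2 fold change 1.53, adjusted p = 0.316). The split of Ccl2 ran the same way as that of the monocyte or neutrophil markers, of which 0 of 15 were called (2 lower at an unadjusted p under 0.05, 0 with DESeq2, and 1 higher and 1 lower with limma-voom), and its relation to them was not tested.

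Interferon-stimulated genes had 2 of 32 called lower and 0 higher (3 higher at an unadjusted p under 0.05, 3 with DESeq2 and 1 with limma-voom), with a median log2 fold change of -0.22. Bst2, tetherin, which holds budding virus particles, was 489 and 763 CPM at day 1 and 180, 106, 228 and 196 CPM at day 3 (log2 fold change -1.82, adjusted p = 0.00487), beside 357 CPM in healthy LSECs. Rsad2, viperin, an antiviral enzyme, was 385 and 277 CPM at day 1 and 134, 74.8, 42.0 and 47.6 CPM at day 3 (log2 fold change -2.15, adjusted p = 0.0458). Of 18 acute phase and metal binding genes, Hamp was called higher and Mt2 lower, and 15 had a positive log2 fold change, with a median of 2.18. Of these 18, 10 lay above without overlap and 2 below, and 5 were higher and 2 lower at an unadjusted p under 0.05. Mt2, a metallothionein that binds zinc, was 875 and 445 CPM at day 1 and 143, 146, 46.2 and 27.1 CPM at day 3 (log2 fold change -2.87, adjusted p = 0.0246). Of 18 targets of the transcription factor Nrf2, Gstm1 was called higher and Hmox1 lower, with a median log2 fold change of 0.05. At an unadjusted p under 0.05, 3 were higher and 7 lower, with DESeq2 1 and 5, and with limma-voom 3 and 6. Hmox1, heme oxygenase 1, was 815 and 280 CPM at day 1 and 128, 177, 140 and 138 CPM at day 3, near 140 CPM in healthy LSECs (log2 fold change -1.91, adjusted p = 0.0242). Gstm1, a glutathione transferase, moved the other way, from 36.6 and 38.1 CPM at day 1 to 103, 137, 144 and 93.7 CPM at day 3, beside 125, 121, 132 and 232 CPM in the healthy mice (log2 fold change 1.67, adjusted p = 0.0248). The calls of Cxcl16, Il4ra, Mt2, Rsad2 and Gstm1 were lost without either day 1 mouse, that of Bst2 without day 1 mouse 2 and that of Hmox1 without day 1 mouse 1. Cxcl16 also lost its call without day 3 mouse 1, 2 or 3, Rsad2 without mouse 2, 3 or 4, and Gstm1 without mouse 3.

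Housekeeping lists showed small shifts. Of 41 proteasome subunits Psmb9, an immunoproteasome subunit, was called higher (log2 fold change 1.40, adjusted p = 0.0439) and 0 lower, although 12 were lower at an unadjusted p under 0.05, 3 with DESeq2 and 9 with limma-voom, and the list's median log2 fold change was -0.37. Of 36 ribosome biogenesis genes 0 were called, 9 were lower at an unadjusted p under 0.05, 3 with DESeq2 and 11 with limma-voom, and the median was -0.31. Of 29 heat shock and unfolded protein genes 0 were called (3 at an unadjusted p under 0.05, 1 with DESeq2 and 1 with limma-voom), with a median of 0.20, and of 23 cholesterol synthesis genes 0 were called (7 at an unadjusted p under 0.05, 5 with DESeq2 and 5 with limma-voom), with a median of -0.36. The Psmb9 call was lost without either day 1 mouse and without day 3 mouse 1, 2 or 3.

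Most identity genes of LSECs were not called between the days, but the day 3 mice were split. Of 13 LSEC markers Lyve1 was called lower and 0 higher, with a median log2 fold change of 0.11. At an unadjusted p under 0.05, 1 was higher and 2 lower, with DESeq2 1 and 2, and with limma-voom 0 and 3. The list's mean log2 CPM was 9.54 and 9.85 at day 1 and 9.20, 9.41, 9.74 and 9.96 at day 3. Without day 3 mice 3 and 4, 0 were called higher and 4 lower, and without mice 1 and 2, 1 higher and 2 lower. Lyve1, a hyaluronan receptor of the sinusoid (chr7:110850607-110863239), was 3020 and 3397 CPM at day 1 and 779, 925, 1057 and 935 CPM at day 3. The day 3 mice were all below both day 1 mice and above the healthy mean of 387 CPM (log2 fold change -1.80, SE 0.26, adjusted p = 0.00393), and the call was lost without day 1 mouse 2. Stab2, stabilin 2, a scavenger receptor, was 1684 and 1405 CPM at day 1 and 947, 1168, 1701 and 2363 CPM at day 3 (log2 fold change 0.00, SE 0.31). Clec4g, a lectin of the sinusoid, was 1987 and 3381 CPM at day 1 and 3337, 3637, 2568 and 2026 CPM at day 3 (log2 fold change 0.11, adjusted p = 0.919). Both overlapped between the days. Kdr, the VEGF receptor 2, was 592 and 761 CPM at day 1 and 821, 848, 1493 and 2031 CPM at day 3, above both day 1 mice in all 4 (log2 fold change 0.94, adjusted p = 0.177), beside 2216 CPM in healthy LSECs. None of 24 endothelial transcription factors was called by edgeR (3 lower at an unadjusted p under 0.05, 1 with DESeq2 and 5 with limma-voom). Their mean log2 CPM was 6.28 in both day 1 mice and 5.84, 5.69, 6.31 and 6.36 in the day 3 mice. Without day 3 mice 3 and 4, 6 of them were called lower, and without mice 1 and 2 it was 0.

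Among 37 genes of vessel growth and tone, 1 was called higher and 3 lower. Angpt2, a destabiliser of vessels, was 166 and 232 CPM at day 1 and 77.2, 96.2, 76.8 and 104 CPM at day 3, still above the healthy mean of 50.4 CPM (log2 fold change -1.17, adjusted p = 0.0309). Dll1, a Notch ligand, was 24.4 and 30.7 CPM at day 1 and 7.64, 9.42, 7.23 and 10.0 CPM at day 3 (log2 fold change -1.68, adjusted p = 0.0145). Vegfd, a lymphatic growth factor whose cell of origin in the sort was not tested, was 0.155 and 0.286 CPM at day 1 and 6.04, 4.93, 5.34 and 5.04 CPM at day 3 (log2 fold change 4.58, adjusted p = 0.0212). These 3 calls were lost without either day 1 mouse, and Angpt2 also without day 3 mouse 3 and with library-size scaling. The large-vessel markers had Gja5, connexin 40, called lower, at 6.22 and 5.28 CPM at day 1 and 1.75, 2.50, 2.14 and 1.27 CPM at day 3 (log2 fold change -1.59, adjusted p = 0.0276), also lost without either day 1 mouse.

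The study drew up lists of healthy and damaged LSEC genes from human single-cell data, matched here as mouse genes, and used the present samples to narrow the healthy list to a signature, so that signature is not independent of them. Of 49 healthy LSEC genes 1 was called higher and 4 lower, with a median log2 fold change of -0.12. The healthy LSEC gene called higher was Reln, which is also counted above among the stellate or fibroblast markers. Of 15 damaged LSEC genes 1 was higher and 2 lower, with a median of -0.24. Akap12, a scaffold of protein kinase A, fell from 773 and 830 CPM at day 1 to 149, 192, 170 and 204 CPM at day 3 (log2 fold change -2.16, adjusted p = 0.0322). Fabp4, a fatty acid carrier of capillary endothelium, fell from 5199 and 5290 CPM at day 1 to 2203, 1963, 1234 and 537 CPM at day 3, with mouse 4 below the healthy mean of 1068 CPM (log2 fold change -1.82, adjusted p = 0.0399). Plpp1, a lipid phosphatase, fell from 2419 and 2891 CPM to 823, 1047, 705 and 531 CPM (log2 fold change -1.77, adjusted p = 0.0109). Cd34, a sialomucin of capillary endothelium, rose from 23.2 and 20.9 CPM at day 1 to 58.6, 42.8, 108 and 119 CPM at day 3 (log2 fold change 1.90, adjusted p = 0.0242). Fabp5, a relative of Fabp4, was 346 and 236 CPM at day 1 and 660, 643, 417 and 191 CPM at day 3 and did not pass (log2 fold change 0.71, adjusted p = 0.444). Vwf, the clotting factor of larger vessels, ranged over 14.6 to 16.8 CPM at day 1 and 11.4 to 109 CPM at day 3, highest in mouse 2 (adjusted p = 0.404). Vwa1, a matrix protein, stayed at or under 3.32 CPM in every one of the 6 mice (adjusted p = 0.682). The calls of Akap12, Fabp4, Plpp1 and Cd34 were lost without either day 1 mouse, those of Fabp4 and Cd34 also without day 3 mouse 3, and that of Akap12 without day 3 mouse 1, 2 or 3.

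Day 3 mice differed among themselves in how far the groups had moved. The mean log2 CPM of the mitosis list was 2.08 and 1.48 in the day 1 mice and 4.18, 3.39, 4.87 and 4.90 in the day 3 mice. That of the DNA replication list was 3.70 and 3.66 at day 1 and 4.93, 4.44, 5.52 and 5.49 at day 3. Mice 3 and 4 were thus highest in both cell cycle lists, and they were the mice with few monocyte or neutrophil, T or NK cell and other leukocyte markers. The mean log2 CPM of the 7 markers of all leukocytes was 7.70 and 6.89 at day 1 and 8.13, 7.41, 6.12 and 5.82 at day 3. The collagen list lay at 0.62 and 0.26 at day 1 and at 3.25, 3.25, 3.38 and 4.14 at day 3, without the split. With day 3 mice 3 and 4 both left out, 88 of the 192 cell cycle genes were called higher and 4 lower, and with mice 1 and 2 both left out 147 were higher and 1 lower, in fits added after the data were seen. Cell cycle genes were therefore called higher with either pair of day 3 mice.

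**Figure D5:**
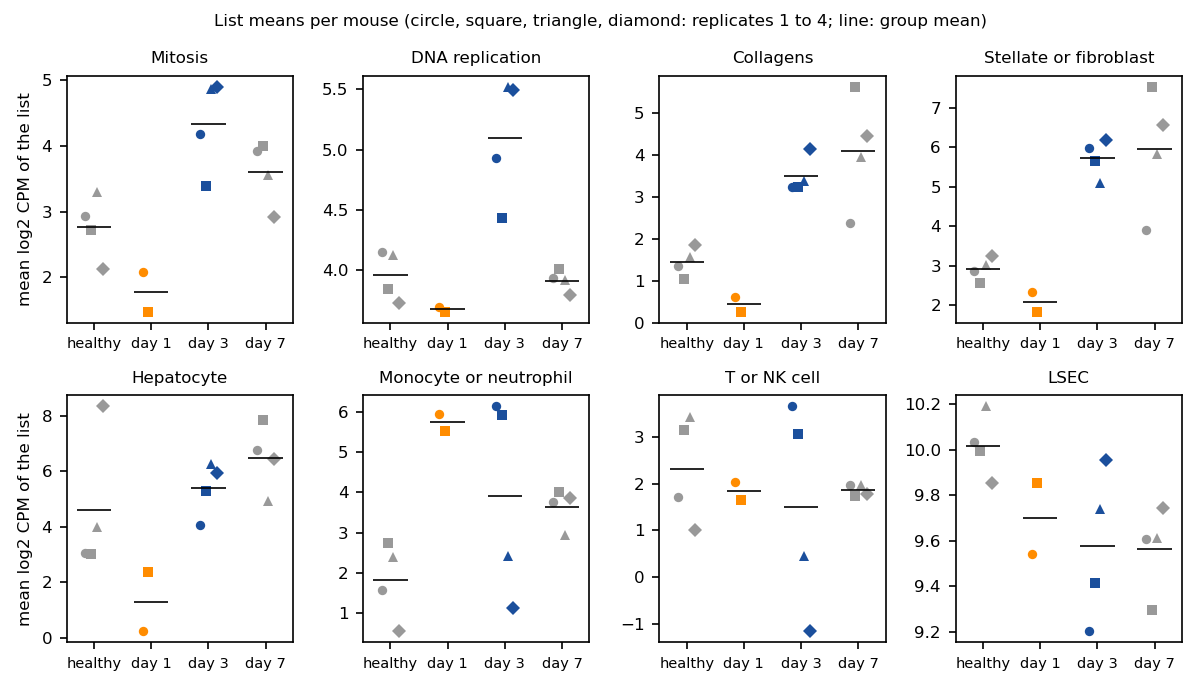
Mean log2 CPM of 8 gene lists in each mouse (points), by group from healthy through day 1, day 3 and day 7. Day 3 mice 3 and 4 lie highest for mitosis and DNA replication (4.87 and 4.90, 5.52 and 5.49). For the monocyte or neutrophil list they lie lowest among the injected mice (2.41 and 1.14), in the range of the healthy mice (0.551 to 2.74). The LSEC list stays between 9.20 and 9.96 in the day 1 and day 3 mice.

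Healthy levels placed the called genes, as a description only, since the day 1 and day 3 values chose them. For the called rises, the healthy mean lay between the day 1 and day 3 means for 329 of 418 genes, below both for 20 and above both for 69. For the called falls, the healthy mean lay between them for 166 of 258 genes, below both for 85 and above both for 7, and it was nearer to day 3 than to day 1 for 185 of 258, beside 13865 of all 26626 genes tested. The median difference from healthy on the log2 scale was -1.31 at day 1 and 1.63 at day 3 for the rises and 0.93 at day 1 and -0.33 at day 3 for the falls. Thbd, Nos3, Hif1a and Qsox1 were thus far above the healthy mean at day 1 and near it at day 3, and for 65 of 70 mitosis genes the healthy mean lay between the day 1 and day 3 means.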

How the data were processed

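RNA of sorted LSECs was sequenced (SMART-Seq v4 libraries, described both as paired-end and as single-end) for 14 mice. The authors used STAR and StringTie on GRCm38, per the labels and methods, and deposited 1 table of raw counts by Ensembl gene and sample. Tool versions, the annotation release, the use of strand and the step from StringTie to counts are not given in the sources used here, so counts of overlapping genes (382 of the 676 called genes overlap another gene) and of near-identical copies are uncertain. Names and positions came from GENCODE M21.

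Samples were grouped by their labels. Of 54524 genes, 26626 passed filterByExpr of edgeR with the groups given (at least 10 counts, 15 in total). Counts were TMM-scaled and tested with edgeR 4.0.16 in R 4.3.3 (quasi-likelihood test, 1 model of 4 group means over 14 samples, contrast day 3 minus day 1, Benjamini-Hochberg adjustment over all tested genes, threshold 0.05). The shared model takes the spread from all 4 groups. Standard errors are the absolute log2 fold change over the square root of F. Log2 CPM for list means used a prior count of 2. Counts under 3 in a sample were taken as not detected, a floor for counting error only. Depth was 62635645 to 94626259 counts per sample in the 6 compared.

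Named genes were, from the called protein-coding genes, the 10 that rose and the 10 that fell most with at least 5 CPM in the higher group and no overlap between the days, up to 4 called members with the smallest adjusted p from each gene list, and a set of cell cycle, LSEC and vessel genes whatever their values. The gene lists are sets of genes of known pathways and cell types, and the members and lists were chosen with earlier results of these data known. The study names DESeq2, which was an alternative (1.42.0), beside limma-voom with sample quality weights (limma 3.58.1), other scaling and filters, a model of the 6 samples, the sample number as a block, and leaving out each sample. The edgeR steps were tested on simulated counts with known changes. Staining, blood values and human data of the study were not analysed here. The values of 1 gene of the named set are not reported here.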

Additional observations from a re-analysis of the deposited data

Results flagged for a closer look

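Each named gene and each list mean was checked in the 4 day 3 mice for a value that stands apart from the other 3 by more than Dixon's 95% critical value for the gap over the range, which chance passes in about 1 of 20 groups. Of 121 genes and 40 lists tested, 1 gene and 5 lists passed. Genes and lists together passed less often than 1 in 20, and the lists alone more often, so the flags are not more than chance would give over all groups tested. Foxm1, the activator of mitotic genes, was 51.57 CPM in mouse 4 against 6.532 to 8.962 CPM in the others. The collagen list had a mean log2 CPM of 4.144 in mouse 4 against 3.245 to 3.385, the B cell markers 1.187 in mouse 4 against 3.572 to 3.981, and the megakaryocyte or platelet markers -1.486 in mouse 4 against 0.5613 to 0.7968. The heat shock and unfolded protein list was 7.573 in mouse 2 against 7.272 to 7.323, and the interferon-stimulated list was 6.383 in mouse 1 against 5.763 to 5.814. In all, 4 of the 6 were in day 3 mouse 4, which also had the fewest genes with a count, 22986 against 28203 to 34768 in the other day 3 mice. Without that mouse Foxm1 and 9 collagens were still called higher.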

How the results depend on the processing

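Every one of the 676 called genes that was tested in an alternative setting kept its direction there. The genes were chosen on these same samples, and 674 of them had no overlap between the days, so a kept direction says little by itself. The number of called genes did not stay the same. In place of 676 there were 2408 with DESeq2, 3344 with limma-voom and sample quality weights, 189 with a model of the 6 samples alone, and 49 to 915 when 1 sample was left out, lowest without a day 1 mouse. The labels do not say whether equal sample numbers link mice of different days. Day 1 and day 3 mice of the same number correlated in their deviations at 0.0962 and 0.00442. The deviations of the 2 day 1 mice mirror each other, so these values cannot decide whether the numbers link mice. With the number as a replicate block 311 genes were called, 51 of the 192 cell cycle genes among them, all higher. In settings added after the data were seen, 2784 genes were called without day 3 mice 3 and 4 and 1923 without mice 1 and 2. The sample quality weights of limma-voom were 1.08, 1.72, 0.287 and 0.0887 for day 3 mice 1 to 4. All limma-voom counts given here therefore rest mainly on mice 1 and 2 for day 3. The share of called genes that were higher was 61.8%, and it was 70.1% with DESeq2, 45.8% with limma-voom, 71.7% with library-size scaling, 55.0% without a filter, 76.2% with the 6 samples alone, 20.9% to 69.2% when 1 sample was left out, 35.3% without day 3 mice 3 and 4, 53.9% without mice 1 and 2 and 66.2% without healthy mouse 4. The median log2 fold change of all genes was 0.19 and turned to -0.0243 without day 3 mice 1 and 2. The cause of these moves was not tested, except that a setting without a sample has fewer samples. Of the list counts under planned settings 836 were close to the reported ones, 148 were larger and 136 smaller, and of the gene calls 1390 were unchanged, 13 gained and 298 lost. In these totals a list count of 0 in both fits was taken as close, and a gene called in neither fit as unchanged, so they include agreement without any call. Lists with many calls varied. Mitosis had 50 called higher, 68 with DESeq2 and 27 with the replicate block. For DNA replication the counts were 23, 36 and 8, and for collagens 9, 16 and 3. Of genes that were not called, Stab2 kept its sign in 8 of 17 settings and Clec4g in 13 (log2 fold change -0.32 to 0.44), and Vwf, Wnt2 and Col4a2 each turned sign in 1. Day 1 levels rest on 2 mice.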
